A study of Rattus norvegicus with 6 samples.

Results

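The genes described here are 10 genes of type 2 immunity and alternative macrophage activation: Retnla, Chia, Chi3l1, Ccl11, Ccl17, Ccl22, Ccl24, Il4r, Il33 and Il1rl1. They were chosen by name, with earlier results of these data known. Every probe set annotated to one of them and to no other gene was taken. This gave 13 probe sets of 31042 compared and 10 genes of 14217 named. Ccl22, Il33 and Il1rl1 had 2 probe sets each and the other 7 genes had 1. The brightest probe set, by mean log2 value over all arrays, stands for its gene unless another is named.

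Each array held RNA from the lung of a single rat of the inbred Lewis strain. In the silica group were 3 rats exposed by inhalation to aerosolized crystalline dust (Min-U-Sil 5) at 6.2 mg/m3 for 6 h a day, 5 days a week, over 6 weeks, and in the control group were 3 rats that received filtered air in chambers run in the same way. The sources used here do not give age, sex or how long after the last exposure tissue was taken. Whole lung was homogenised, so a signal is an average over all cells of the lung, and more cells of a type cannot be told apart from more RNA per cell.

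Type 2 immunity is the branch of the immune response built around interleukin 4, interleukin 5 and interleukin 13, and it is best known from allergy and worm infection. Interleukin 4 and interleukin 13 act through receptors that contain the interleukin 4 receptor alpha chain (Il4r) and activate the transcription factor STAT6, and macrophages that receive this signal are called alternatively activated. In rodents such macrophages make Retnla (resistin-like alpha) and chitinase family proteins, but lung epithelium makes them too. Interleukin 33 (Il33) is an alarm cytokine kept in the nucleus of barrier cells and released on damage, Il1rl1 encodes its receptor ST2, and the chemokines Ccl17 and Ccl22 attract cells through the receptor CCR4 while the eotaxins Ccl11 and Ccl24 act through CCR3.

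Of the 10 genes 4 rose in silica lungs and none fell, at an adjusted p under 0.05 over all probe sets. The secreted effector genes Retnla, Chia and Chi3l1 and the chemokine gene Ccl17 were higher, by about 3-fold to 5-fold. Among the brightest probe sets of all named genes 1.55% were called higher and 0.12% lower. The median log2 fold change (silica minus control) of the 10 genes was 0.50, against 0.02 over all 14217 named genes. The eotaxin genes, the interleukin 4 receptor chain, Ccl22, Il33 and its receptor did not pass. Counting probe sets, 4 of the 13 rose, where 0.934% of all probe sets were called higher and 0.145% lower. Without regard to the test, the 3 silica arrays lay above the 3 control arrays in 5 of the 10 genes and below them in 1, against 18.7% and 12.7% of all named genes. The genes were chosen with earlier results of these data known, so these shares and medians describe the list and test nothing.

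**Figure D1:**
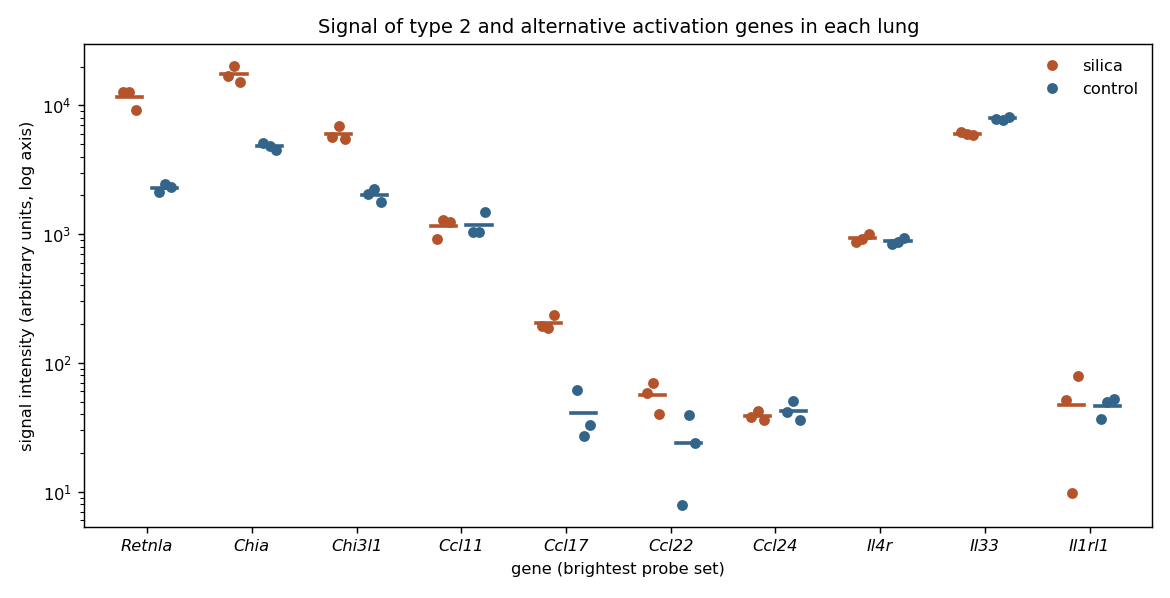
Signal intensity (log axis) of the brightest probe set of each of the 10 genes, with 1 point per lung, silica left of control, and a line at the group mean. The silica points lie above the control points for Retnla, Chia, Chi3l1, Ccl17 and Ccl22, and below them for Il33.

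Retnla encodes a small secreted cysteine-rich protein. Its probe set 1368423_at had signals of 12624, 12793 and 9281 in silica replicates 1, 2 and 3, against 2142, 2431 and 2326 in control replicates 1, 2 and 3. The lowest silica lung was thus well above the highest control lung. The means were 11566 ± 1981 in silica and 2299.6 ± 146 in control (SD, n = 3 each), and the log2 fold change was 2.31 ± 0.15 (SE, 95% confidence interval 1.93 to 2.69, limma adjusted p = 0.0127). By size of rise Retnla was number 14 of the 14217 named genes.

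Chia encodes acidic mammalian chitinase, an enzyme that cleaves chitin. Its signals (1381318_at) were 16874, 20240.2 and 15289 in the silica replicates, against 5140.4, 4844 and 4541 in the control replicates, so the groups did not overlap. By mean log2 value over all arrays it stood at percentile 99.2 of all probe sets. The log2 fold change was 1.84 ± 0.13 (SE, 95% confidence interval 1.51 to 2.17, limma adjusted p = 0.0131).

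Chi3l1 encodes a chitinase-like protein that binds chitin without cleaving it. Its signals (1392171_at) were 5652, 6965 and 5496 in the silica replicates, against 2057, 2248 and 1776 in the control replicates. Again no silica lung reached down to a control lung. The log2 fold change was 1.57 ± 0.15 (SE, 95% confidence interval 1.21 to 1.92, limma adjusted p = 0.0248). Retnla, Chia and Chi3l1 shared the order of the silica lungs, with replicate 2 highest and replicate 3 lowest in each.

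Ccl17, the thymus- and activation-regulated chemokine, was much dimmer. Its signals (1370118_at) were 192.3, 185.3 and 233.4 in the silica replicates, against 61.4, 27.2 and 33.1 in the control replicates. The groups did not overlap, and silica replicate 3, the lowest silica lung for the effector genes, was the highest for Ccl17. The log2 fold change was 2.00 ± 0.24 (SE, 95% confidence interval 1.43 to 2.57, limma adjusted p = 0.0338). Because the control signal was low, this value moved with the pseudocount, to 1.37 with a pseudocount of 64 (adjusted p = 0.00682) and 2.38 with a pseudocount of 1 (adjusted p = 0.0733).

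The adjusted p of these 4 genes depended on the setting. With the replicate number as a block, which leaves 2 residual degrees of freedom, each of them had an adjusted p of 0.153 at the same log2 fold change. Leaving out any of the 6 arrays in turn, the log2 fold changes stayed within 2.23 to 2.46 for Retnla, 1.73 to 1.93 for Chia, 1.46 to 1.64 for Chi3l1 and 1.83 to 2.25 for Ccl17, while the adjusted p ran from 0.0525 to 0.120, so none of the 4 passed without control replicate 1, 2 or 3 or silica replicate 1, 2 or 3. A measure of RNA integrity, the log ratio of 3-prime over 5-prime probe sets averaged over Actb and Gapdh, was 1.67, 1.50 and 1.15 on the log2 scale in the silica replicates, against 1.23, 1.20 and 1.00 in the control replicates. With that ratio as a covariate the log2 fold changes were 2.10, 1.71, 1.45 and 2.05 for Retnla, Chia, Chi3l1 and Ccl17, and the adjusted p values 0.156, 0.156, 0.183 and 0.223.

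**Figure D2:**
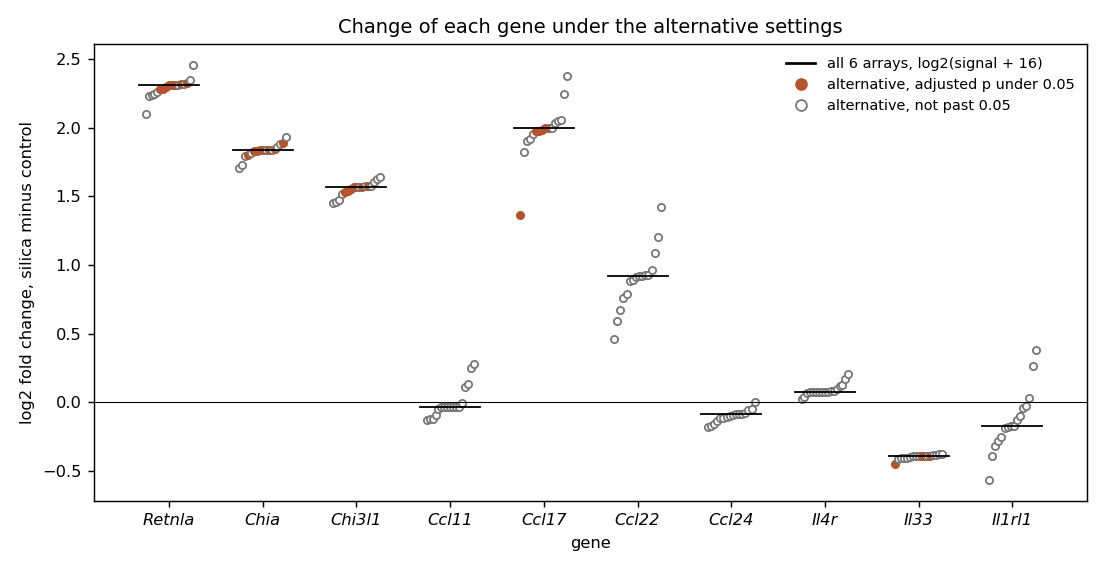
Log2 fold change (silica minus control, y axis) of each gene under its 16 or 17 alternative settings, 1 point per setting and sorted by value, with a line at the value from all 6 arrays. Retnla, Chia, Chi3l1 and Ccl17 stay above 0 and Il33 below 0 in each setting run, with filled points where the adjusted p is under 0.05.

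The sequences before the annotated start sites of the 4 genes that rose are shown because these genes moved together and Retnla, Chia and Ccl17 are known targets of interleukin 4 or interleukin 13 signalling in mice or humans. Each window runs from 250 bases before to 50 bases after the RefSeq start on assembly GRCr8, is written 5′ to 3′ on the gene's strand, and has matches to 3 motifs in capitals. The motifs were the STAT6 spacing (TTC and GAA with any 4 bases between), the general STAT spacing (TTCNNNGAA) and the C/EBP core (TTGCNNAA), searched on both strands, and 7.28%, 8.87% and 10.6% of all 33469 promoter windows hold them.
Retnla, chr11:65426137-65426436, minus strand: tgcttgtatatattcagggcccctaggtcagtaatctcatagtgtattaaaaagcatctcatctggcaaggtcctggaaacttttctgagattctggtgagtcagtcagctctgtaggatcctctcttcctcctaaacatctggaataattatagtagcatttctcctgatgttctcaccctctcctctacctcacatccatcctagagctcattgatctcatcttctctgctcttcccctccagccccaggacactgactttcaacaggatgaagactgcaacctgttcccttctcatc
Chia, chr2:196302437-196302736, plus strand: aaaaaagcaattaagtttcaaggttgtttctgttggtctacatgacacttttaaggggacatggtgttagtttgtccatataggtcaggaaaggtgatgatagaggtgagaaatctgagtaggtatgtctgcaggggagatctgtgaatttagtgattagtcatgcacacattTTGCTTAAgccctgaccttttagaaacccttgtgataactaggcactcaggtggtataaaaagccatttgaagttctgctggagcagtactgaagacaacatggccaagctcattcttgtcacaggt
Chi3l1, chr13:48193589-48193888, plus strand: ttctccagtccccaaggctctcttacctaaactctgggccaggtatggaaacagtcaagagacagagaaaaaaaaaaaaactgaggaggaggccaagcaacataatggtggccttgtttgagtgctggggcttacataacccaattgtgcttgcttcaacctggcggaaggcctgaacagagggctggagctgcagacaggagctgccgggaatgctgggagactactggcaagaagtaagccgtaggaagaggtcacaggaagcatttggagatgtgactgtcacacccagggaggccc
Ccl17, chr19:10209846-10210145, minus strand: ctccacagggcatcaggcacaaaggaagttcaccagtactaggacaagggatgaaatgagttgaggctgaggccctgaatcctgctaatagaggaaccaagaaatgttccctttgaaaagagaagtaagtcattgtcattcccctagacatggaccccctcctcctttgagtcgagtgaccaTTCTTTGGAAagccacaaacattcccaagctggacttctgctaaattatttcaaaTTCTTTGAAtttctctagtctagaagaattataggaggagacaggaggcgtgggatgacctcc
The Ccl17 window held 1 STAT6 match beginning 68 bases before the start and 1 STAT match beginning 13 bases before it, which do not overlap each other. The Chia window held 1 C/EBP match beginning 77 bases before the start, and the letters of these motifs were not in the Retnla and Chi3l1 windows. RefSeq windows were matched for 9 of the 10 genes, all but Ccl11. Among the genes that did not rise, matches stood in the windows of Ccl24 (STAT), Il1rl1 (STAT6) and the second of 2 Il33 windows (C/EBP), and none in those of Ccl22 and Il4r. A match describes letters only.

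Ccl22, which binds the same receptor as Ccl17, was near the dim end of the array in both groups. Its brighter probe set (1370620_at) had 58.8, 69.5 and 40.2 in the silica replicates, against 7.9, 39.7 and 23.9 in the control replicates, and its other probe set (1370619_at) had 18.7, 43.9 and 41.6 against 29.7, 14.6 and 19.5. In the brighter one the groups were apart by the margin between 40.2 and 39.7, and in the other they overlapped. The log2 fold changes were 0.92 ± 0.33 (SE, limma adjusted p = 0.239) and 0.42 ± 0.26 (SE, limma adjusted p = 0.455), so no change of Ccl22 passed the test. In the brighter probe set the log2 fold change was 0.59 without control replicate 1, whose 7.9 was the lowest value, and it was 1.42 with a pseudocount of 1 and 0.46 with a pseudocount of 64, none of which passed.

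The eotaxin genes did not pass either, and their intervals were centred near 0. Ccl11 (1387319_at) had 920.1, 1292 and 1232 in the silica replicates, against 1035, 1037 and 1474 in the control replicates, with overlapping groups and a log2 fold change of -0.04 ± 0.20 (SE, 95% confidence interval -0.52 to 0.45, limma adjusted p = 0.945). Without control replicate 3, the highest of the 6 lungs, that value was 0.13. Ccl24 (1385309_at) was dim, with 38.0, 42.5 and 36.3 in silica and 41.8, 50.2 and 35.9 in control, and its log2 fold change was -0.09 ± 0.12 (SE, 95% confidence interval -0.39 to 0.21, limma adjusted p = 0.756). Ccr3, the eotaxin receptor, had a mean signal of 41.8 ± 18.0 in silica and 22.6 ± 8.32 in control, and Ccr4, the receptor of Ccl17 and Ccl22, had 7.40 ± 5.20 in silica and 18.4 ± 11.6 in control (SD, n = 3 each), both overlapping. The receptors are named here after their values were seen.

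Il33 was the one gene of the 10 that lay lower in every silica lung, and it did so in both of its probe sets. The brighter one (1373970_at) had 6185, 5961 and 5920 in the silica replicates, against 7902, 7753 and 8104 in the control replicates, with little spread in either group. Its log2 fold change was -0.39 ± 0.09 (SE, 95% confidence interval -0.61 to -0.18), which is 0.761 times the control level, and it did not pass (limma adjusted p = 0.113). The other probe set (1389581_at) had 1780.4, 2156 and 2107 in silica, against 2638, 2738 and 3204 in control, with a log2 fold change of -0.50 ± 0.13 (SE, limma adjusted p = 0.147). Il33 crossed the threshold when the dimmer 50% of probe sets were left out (adjusted p = 0.0203), with an intensity trend and robust spread (0.00380), with a pseudocount of 64 (0.0436) and as the mean of its probe sets (0.0484). It kept its sign in all 17 alternatives, between -0.45 and -0.38, with adjusted p from 0.00380 to 0.387.

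The interleukin 4 receptor chain Il4r (1368134_a_at) had 861.8, 921.5 and 998.9 in the silica replicates, against 830.9, 871.7 and 929.3 in the control replicates. The groups overlapped, and the log2 fold change was 0.08 ± 0.11 (SE, 95% confidence interval -0.18 to 0.33, limma adjusted p = 0.747). Il1rl1, the interleukin 33 receptor, was dim and uneven. Its brighter probe set (1370692_at) had 51.9, 9.7 and 79.4 in silica, against 36.8, 49.7 and 52.4 in control, and the other (1387273_at) had 22.7, 30.4 and 57.8 against 30.0, 31.2 and 21.6. The probe sets differed in sign, with log2 fold changes of -0.17 ± 0.47 (SE, limma adjusted p = 0.887) and 0.23 ± 0.25 (SE, limma adjusted p = 0.682), and the value of the brighter one was 0.38 without silica replicate 2. The 95% confidence interval of the brighter probe set, -1.32 to 0.98, includes a 2-fold fall.

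**Figure D3:**
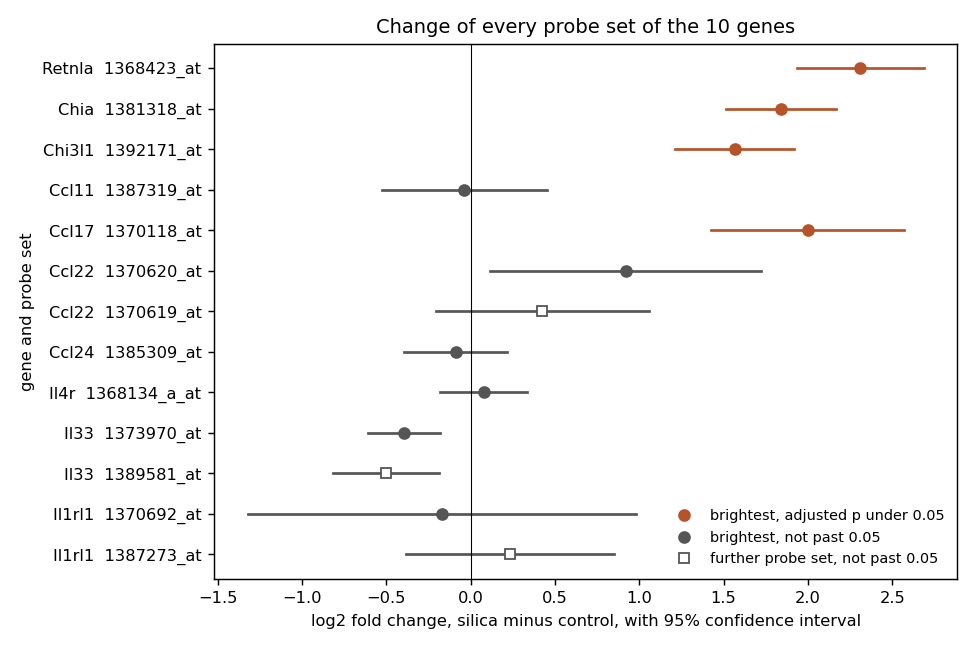
Log2 fold change (silica minus control, x axis) of all 13 probe sets, 1 per row, with its 95% confidence interval from the fit over all arrays. The intervals of Retnla, Chia, Chi3l1 and Ccl17 lie above 0 and pass the adjusted threshold, both Il33 intervals lie below 0 without passing, and the widest belongs to the brighter Il1rl1 probe set.

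The pathway around these genes was read from 4 lists of 65 genes, of which 53 had a probe set of their own. Of the 53 genes 3 rose and none fell, where 1.55% of all named genes were called higher and 0.12% lower. The median log2 fold change was 0.05, against 0.02 over all named genes. In 17 of them the silica arrays lay above the control arrays and in 5 below, against 18.7% and 12.7% of all named genes. The lists too were chosen with earlier results of these data known.

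None of the 8 measured cytokine genes passed. Il4 had 4.8, 4.5 and 21.8 in the silica replicates, against 5.6, 21.6 and 4.1 in the control replicates, and Il13 had 7.1, 3.6 and 6.9 against 5.0, 19.3 and 6.3. These signals lie at percentiles 8.27 and 6.29 of all probe sets, where the arrays say little about a difference. Il5 and Il3, the cytokine genes with the smallest p, had log2 fold changes of -0.40 ± 0.17 (SE, limma adjusted p = 0.300) and -0.61 ± 0.28 (SE, limma adjusted p = 0.331), and were as dim. Tslp, an epithelial cytokine gene named after its values were seen, was measurable and had 115.6 ± 19.8 in silica and 115.4 ± 18.1 in control (SD, n = 3 each).

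Of 22 receptor and signalling genes 1 rose. In 11 of the 22 the silica arrays lay above the control arrays and in 1 below, against 18.7% and 12.7% of all named genes. The median log2 fold change of this list was 0.27. These shares describe the list and test nothing. Jak3, the kinase bound to the common gamma chain, had 239.2, 272.5 and 278.4 in the silica replicates, against 138.1, 153.0 and 148.3 in the control replicates, without overlap (log2 fold change 0.78 ± 0.11, SE, limma adjusted p = 0.0422). Il2rg, the common gamma chain itself, had 1843 ± 275 in silica and 1091 ± 52.2 in control (SD, n = 3 each) and did not pass (log2 fold change 0.74 ± 0.14, SE, limma adjusted p = 0.0802). Jak3 and the common gamma chain are used by lymphocyte cytokines other than interleukin 4 as well. Stat6 had 204.2, 328.8 and 304.6 in silica, against 270.5, 318.4 and 274.6 in control, overlapping, with a log2 fold change of -0.06 ± 0.19 (SE, limma adjusted p = 0.894).

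Of 14 measured genes of alternative activation 1 rose. Arg1, arginase 1, had 817.8, 1025 and 1016 in the silica replicates, against 366.7, 326.6 and 228.2 in the control replicates (log2 fold change 1.60 ± 0.20, SE, limma adjusted p = 0.0394). No silica lung overlapped a control lung. The mannose receptor gene Mrc1 had 4118, 3320.1 and 4143 in silica, against 3700.2, 3947 and 3614 in control, with overlapping groups (log2 fold change 0.03 ± 0.12, SE, limma adjusted p = 0.917). Egr2, a transcription factor gene, had a log2 fold change of 0.50 ± 0.12 (SE, limma adjusted p = 0.136). In 5 of the 14 genes the silica arrays lay above the control arrays and in 2 below, against 18.7% and 12.7% of all named genes. The 2 lower genes, named after their values were seen, were Alox15 and Cdh1. Their log2 fold changes were -0.91 ± 0.26 (SE, limma adjusted p = 0.169) and -0.35 ± 0.11 (SE, limma adjusted p = 0.207), and neither passed.

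The list of type 2 epithelial products had 9 measured genes, Alox5 among them, and no listed gene was traced to a cell type here. Of these 9 genes 1 rose, the anion exchanger gene Slc26a4 (pendrin). It had 1146, 1131 and 952.8 in the silica replicates, against 168.1, 133.1 and 124.8 in the control replicates (log2 fold change 2.79 ± 0.14, SE, limma adjusted p = 0.00960). Postn, periostin, had 6401 ± 580 in silica and 7978 ± 524 in control (SD, n = 3 each) and did not pass (log2 fold change -0.32 ± 0.11, SE, limma adjusted p = 0.236). The gel-forming mucin gene Muc5ac, named after its values were seen, was dim in all lungs, between 2.5 and 11.0 in silica and 3.0 and 13.0 in control. None of the 53 pathway genes passed with the replicate block or with the RNA quality covariate. With 1 array left out, 1 of them passed without silica replicate 1 and 0 without any of the other arrays.

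**Figure D4:**
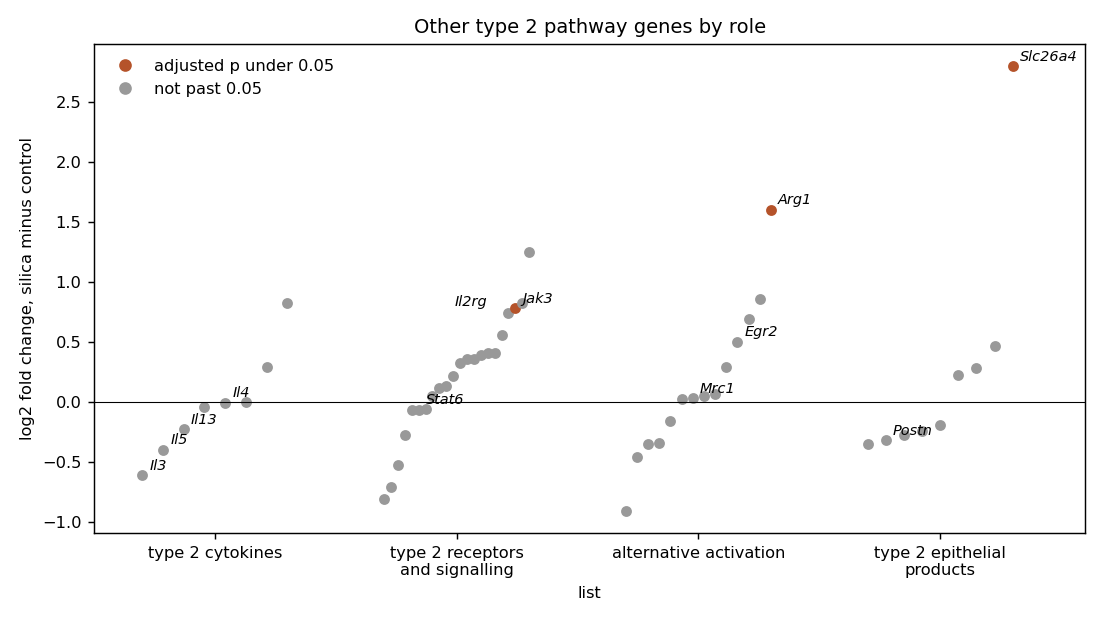
Log2 fold change (silica minus control, y axis) of the 53 measured pathway genes, 1 point per gene, sorted within each of the 4 lists on the x axis. Slc26a4, Arg1 and Jak3 pass the adjusted threshold, while the points of the cytokine genes scatter around 0.

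Genes whose profiles over the 6 arrays lay closest to that of Retnla were found by the root mean square distance between log2 values, each gene centred on its own mean. The 5 closest of all named genes were Cxcl6 (distance 0.24), a neutrophil-attracting chemokine gene, Lcn2 (0.26), an iron-siderophore-binding protein gene, Chia (0.27), Rab7b (0.27), an endosomal GTPase gene, and Ccna2 (0.30), a cyclin gene. Among the 10 genes Chi3l1 followed at 0.40 and Ccl17 at 0.42, and the other 6 lay between 0.76 and 1.42. Lcn2 had 17667, 22701 and 17082 in the silica replicates, against 5352, 5153 and 4746 in the control replicates, so its highest silica lung was also replicate 2. Around the flat profile of Il4r the closest were Myg1, Bcl10, Slc35e3, Tfg and Stxbp2, at distances of 0.03 each. The distances describe likeness over 6 arrays that differ by group and carry no test.

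Marker lists of other cells give the setting of these values. Surfactant genes identified the tissue as lung, with Sftpc at 21418 ± 2980 in silica and 23196 ± 518 in control (SD, n = 3 each). The 6 alveolar type 2 cell markers, none of which passed, summed to 85388 to 99866 in silica and 92290 to 96220 in control, overlapping. The 4 alveolar type 1 cell markers were lower in every silica lung, with sums of 44413 to 47857 in silica and 53266 to 55851 in control, and none passed. The 4 endothelial markers summed to 22529 to 26560.0 in silica and 26347 to 28389 in control, and none passed. These sums stand beside the lower Il33 signal, and their part in it was not tested.

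Beside each marker count below stands the share over all named genes, of which 1.55% were called higher and 0.12% lower. Of 7 macrophage markers 2 rose, Cd68 (log2 fold change 0.88 ± 0.12, SE, limma adjusted p = 0.0431) and Itgax (0.83 ± 0.12, SE, limma adjusted p = 0.0458). Adgre1 and Cd14 were higher in every silica lung, with log2 fold changes of 0.62 and 0.82, but did not pass. Csf1r, Mertk and Lyz2 overlapped between the groups, with log2 fold changes of 0.10, 0.11 and -0.21. The dimmer Mertk probe set was lower in every silica lung (-0.49 ± 0.14, SE, limma adjusted p = 0.166) and did not pass. The summed signal of the 7 markers, mostly that of Lyz2, was 28511 to 37028 in silica and 28224 to 29427 in control. Retnla, Chia and Chi3l1 rose beside these markers with larger log2 fold changes, and the part of the cell number in their rise was not tested. The 4 neutrophil markers, none of which passed, summed to 9292 to 15911 in silica and 5256 to 6889 in control. The highest of these sums was in silica replicate 2. S100a8 and S100a9 were higher in every silica lung, and Csf3r and Cxcr2 overlapped between the groups. The part of these cells in the rise of Retnla, Chia and Chi3l1 was not tested either. Of 7 T cell markers 3 rose, Cd3d, Cd3e and Cd3g, and the list summed to 3423 to 4249 in silica and 1752 to 2126 in control. Cd8a and Il7r were higher in every silica lung, with log2 fold changes of 1.03 and 0.82, but did not pass. Cd4 and Cd28 overlapped between the groups, with log2 fold changes of -0.0059 and -0.20. Of 8 mast cell markers 2 rose, Mcpt1 and Fcer1a, with sums of 2449 to 3183 in silica and 1515 to 1771 in control. Kit, the stem cell factor receptor that mast cells carry, had 143, 99.6 and 193.6 in the silica replicates, against 247.6, 201.5 and 232.3 in the control replicates. It was lower in every silica lung, with a log2 fold change of -0.63 ± 0.23 (SE, limma adjusted p = 0.240) that did not pass. The 2 measured dendritic cell markers, of which Cd83 rose, summed to 1343 to 1636 in silica and 758.4 to 843.3 in control. The T cell, mast cell and dendritic cell sums stand beside the rise of Ccl17, and their part in it was not tested. The 5 eosinophil markers stayed near the bottom of the scale, with sums of 115.2 to 128.7 in silica and 78.1 to 154.1 in control, and Epx and Prg2, the granule protein genes that define the cell, averaged 15.7 and 28.5 in silica and 16.8 and 24.5 in control. None of the 5 passed. The 8 markers that rose had limma adjusted p values of 0.0298 to 0.0484. With the replicate block none of the 8 passed (limma adjusted p = 0.153 to 0.166), nor did any with the RNA quality covariate or with any 1 of the 6 arrays left out.

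**Figure D5:**
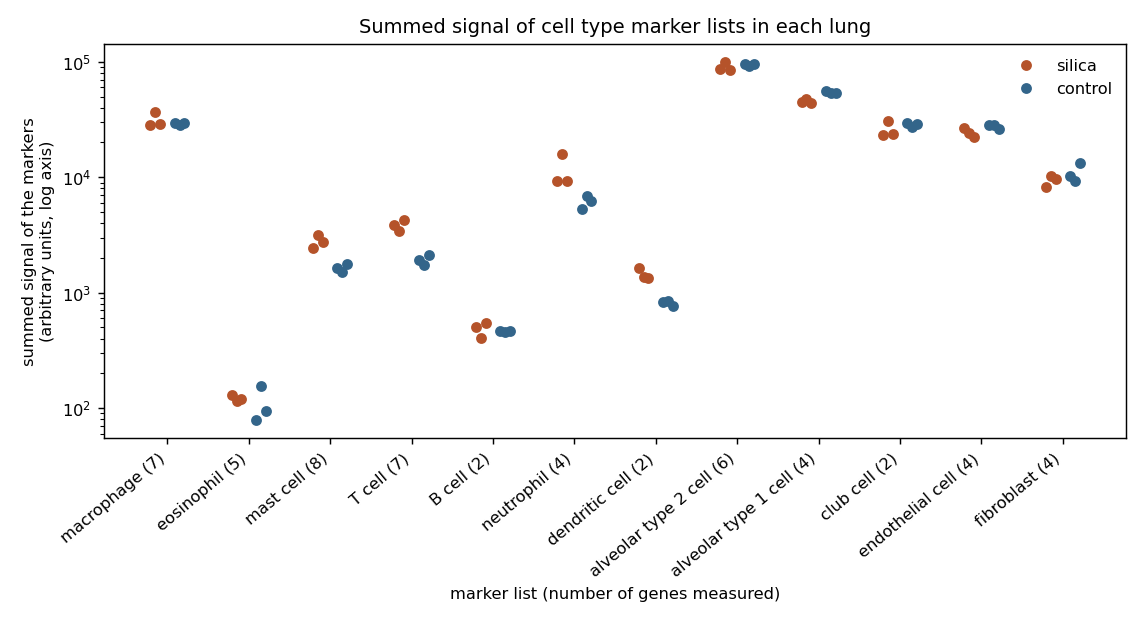
Summed signal (log axis) of each cell type marker list in each lung, silica left of control, with the number of measured genes beside each list name. The silica sums lie above the control sums for mast cell, T cell, neutrophil and dendritic cell markers, below them for alveolar type 1 cell markers, and the eosinophil sums are the lowest of the 12 lists.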

How the data were processed

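Lung RNA of 6 rats was labelled as biotinylated cRNA by in vitro transcription, per the labels' protocols, and hybridised to 1-colour arrays. What was deposited is a linear signal intensity for each probe set and array. The sources used here name no software or scaling. In the values each array had a 2% trimmed mean near 500.1, so 1 factor per array had been applied. Gene names came from the platform annotation, updated by gene identifier to RefSeq (GRCr8). Array control probe sets (57) were left out.

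Signals were analysed as log2(signal + 16), a scale that understates changes of dim genes, with limma 3.58.1 in R 4.3.3 (lmFit, eBayes, group as the only term, 4 residual and 2.18 prior degrees of freedom) over 31042 probe sets, with Benjamini-Hochberg adjustment. An exact permutation test of 3 against 3 cannot go below 0.1. The fit was also run on simulated data with independent normal noise, where it recovered small changes less often than large ones. Such noise need not match that of these arrays. The labels name no shared animal or batch, so p-values measure the spread between these lungs. Same-numbered silica and control arrays had correlations of deviations of 0.22, 0.15 and 0.28 in the brighter 50% of probe sets and 0.09, 0.04 and 0.09 over all, so the replicate block is given beside the calls. Genes to name were the 10 genes, each pathway gene that passed, the 2 with the smallest p in each list, Il4, Il13, Stat6, Arg1 and Mrc1, and the 5 genes closest to Retnla and to Il4r. Members, lists and alternatives were chosen with earlier results of these data known. The alternatives were other scalings, pseudocounts, filters, spreads, weights, thresholds, probe set summaries, a block, an RNA quality covariate and arrays left out. RefSeq promoter windows were searched for motifs. The array number limits the precision of every value.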

Additional observations from a re-analysis of the deposited data

How the results depend on the processing

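The 10 genes gave 4 calls, by gene and by probe set, with all arrays. Neither count moved by more than 1.5 times with quantile normalization, median centring, array weights, a pseudocount of 64, an intensity trend with robust spread, the dimmer 50% left out or a 2-fold requirement, nor did the gene count with probe sets averaged per gene. The genes behind a similar count were not always the same. With the dimmer 50% left out, 3 genes were called higher and 1, Il33, lower, and Ccl17 was among those left out. With the intensity trend, a pseudocount of 64 or averaged probe sets, 4 were called higher and 1, again Il33, lower. Both were 2 with a pseudocount of 1, and 0 with the replicate block, the RNA quality covariate, control replicate 3 and silica replicate 1 left out together, an adjusted p under 0.01, and each of the 6 arrays left out in turn (range 0 to 0). At an unadjusted p under 0.05 in limma, 6 of the 10 genes passed with all arrays, where 17.3% of all probe sets did, 6 with the block (16.7%), 5 with the covariate (10.3%), 5 without that pair (11.6%) and 5 or 6 with 1 array left out (13.0% to 17.5%). These shares are over probe sets, not genes. With probe sets averaged per gene, 6 of the 10 genes passed, where 22% of all named genes did. Of the 8 marker genes that rose, 0 passed with the block, the covariate, the pair left out or any 1 array left out, a comparison added after seeing the data. The pathway lists gave 3 calls with all arrays, 12 with the intensity trend, 9 with the dimmer 50% left out, 5 with a pseudocount of 64, 1 with a pseudocount of 1 or an adjusted p under 0.01, 0 with the block, the covariate or the pair left out, and 0 to 1 with 1 array left out. Of the 12 pathway calls with the intensity trend, 10 were higher and 2 lower. All probe sets gave 335 calls, 1862 with the intensity trend, 1675 with the dimmer 50% left out, 919 and 43 with pseudocounts of 64 and 1, 183 with a 2-fold requirement, 6 at an adjusted p under 0.01, 1 with the block, 0 with the covariate or the pair left out, and 0 to 12 with 1 array left out. The sign turned for Ccl11 (0.25 with the covariate, 0.28 without the pair, 0.13 without control replicate 3, 0.11 without silica replicate 1), for Il1rl1 (0.031 as the mean of its probe sets, 0.27 with the covariate, 0.38 without silica replicate 2) and for Ccl24 (0.0027 without control replicate 2), none of them a call. With 1 array left out these 3 ran from -0.13 to 0.13, -0.57 to 0.38 and -0.17 to 0.0027. Fewer arrays or fewer degrees of freedom enter the fits without an array and with the block or covariate. The covariate also moved log2 fold changes, that of Retnla from 2.31 to 2.10. The cause of the changed counts was not tested in any setting. Ccl22, Ccl24, Il1rl1 and the type 2 cytokine genes other than Tslp and Csf2 were dim, where the scale used understates changes. Small changes could fail to pass in bright genes too, as that of Il33 did (-0.39, limma adjusted p = 0.113).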

Other observations

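Some of the 10 genes lie beside relatives in the RefSeq gene order of assembly GRCr8, and the measured neighbours, named after their values were seen, gave a varied picture. On chromosome 19 the order is Ccl17, Cx3cl1, Ccl22. Ccl17 rose with a log2 fold change of 2.00, while Cx3cl1 (fractalkine) between them had 766.8, 819.0 and 695.0 in the silica replicates, against 649.2, 594.8 and 618.4 in the control replicates. These groups did not overlap, but Cx3cl1 did not pass (log2 fold change 0.28 ± 0.11, SE, limma adjusted p = 0.250). On chromosome 10 Ccl11 lies after Ccl2 and Ccl7. Ccl2 had 1432, 1913 and 1664 in silica, against 203.5, 172.6 and 210.1 in control, and Ccl7 had 417.1, 525.1 and 373.3 in silica, against 67.2, 29.4 and 55.0 in control, with log2 fold changes of 2.99 and 2.80. Ccl11 beside them had -0.04. On chromosome 13 Chi3l1 lies beside Chit1, the chitotriosidase gene of the same family, which had 607.2, 522.2 and 554.3 in silica, against 536.0, 597.3 and 535.5 in control (log2 fold change 0.01 ± 0.11, SE). On chromosome 9 Il1rl1 lies after its relatives Il1r1 and Il1rl2. Il1r1 had 1273, 1143 and 1312 in silica, against 1551, 1533 and 1393 in control. It was lower in every silica lung but did not pass (log2 fold change -0.26 ± 0.11, SE, limma adjusted p = 0.282). Il1rl2 was dim and overlapped between the groups (-0.42 ± 0.26, SE, limma adjusted p = 0.462). The difference between neighbours was not tested. The relatives beside Retnla (Retnlg and Retnlb) and Chia (Chi3l3 and Chial1) were not analysed here, and whether their transcripts add to the Retnla and Chia signals was not tested.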
